A study of Mus musculus with 4 samples.

Results

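The 40 genes described here are imprinted genes of the mouse, chosen by name from well-known imprinted domains, with earlier results of these data known. All 40 symbols were found among the 32532 gene names of the count files. In textbook accounts 24 of them are expressed from the paternal allele and 16 from the maternal allele, and the members are grouped on that basis. The allele of origin was not measured: the counts do not separate the parental copies. The RNA came from ribosomes of the deep nuclei of the cerebellum, through which it sends its output, taken from adult untreated mice of the transgenic line Slc17a6-EGFP/Rpl10a (JX883). In translating ribosome affinity purification (TRAP), an EGFP-tagged ribosomal protein is made in chosen cells and tagged polysomes are captured with antibodies to EGFP. The transgene is named for Slc17a6, a vesicular glutamate transporter gene of glutamatergic neurons. There are 4 pulldown libraries in a single group, each pooled from 3 mice, and no input RNA, wild type or treated group was among them.

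Genomic imprinting is the expression of a gene from only the copy inherited from one parent. The difference between the copies is laid down in the germ line, mainly as DNA methylation of CpG sites at imprinting control regions, and is kept through later cell divisions. Imprinted genes lie in clusters in which protein-coding genes often neighbour long noncoding RNAs, and many of them act in fetal growth, in the placenta and in neurons. Some are imprinted in the brain alone, such as Ube3a, which neurons read from the maternal copy.

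Several of the abundant members start at or near a stretch that is known to carry a methylation imprint, and 5 of these stretches are printed because the genes beside them recur in the results. They are upstream or shared promoter sequences from RefSeq (GRCm38.p6, the same build as mm10), trimmed so that no annotated exon is included, and the capitals mark CpG sites. The first lies between the divergent starts of Peg3 and Usp29 (chr7:6730432-6730577, plus strand). The others lie upstream of Nap1l5 (chr6:58907127-58907261, minus strand), Mcts2 (chr2:152686898-152687034, plus strand), Zrsr1 (chr11:22971755-22972004, plus strand) and Nnat (chr2:157560008-157560077, plus strand).
Peg3-Usp29: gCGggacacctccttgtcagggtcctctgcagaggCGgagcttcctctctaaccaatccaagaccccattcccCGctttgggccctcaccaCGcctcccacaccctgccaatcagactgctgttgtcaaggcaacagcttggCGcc
Nap1l5: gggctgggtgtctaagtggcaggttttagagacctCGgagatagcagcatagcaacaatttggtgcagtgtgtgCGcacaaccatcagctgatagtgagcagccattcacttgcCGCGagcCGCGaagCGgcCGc
Mcts2: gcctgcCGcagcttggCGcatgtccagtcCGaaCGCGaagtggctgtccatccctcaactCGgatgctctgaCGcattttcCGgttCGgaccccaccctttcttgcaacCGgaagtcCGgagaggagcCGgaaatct
Zrsr1: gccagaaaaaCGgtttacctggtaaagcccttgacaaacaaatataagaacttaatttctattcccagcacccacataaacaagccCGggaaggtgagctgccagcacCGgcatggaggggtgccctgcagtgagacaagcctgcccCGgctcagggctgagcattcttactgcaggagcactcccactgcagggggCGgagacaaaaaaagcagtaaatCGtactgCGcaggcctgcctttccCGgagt
Nnat: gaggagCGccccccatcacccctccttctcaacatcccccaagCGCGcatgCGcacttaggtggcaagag

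The Peg3-Usp29 interval of 146 bases holds 5 CpG sites, and the Mcts2 stretch of 137 bases holds 12. Nap1l5 has 8 in 135 bases, Zrsr1 8 in 250 and Nnat 4 in 70. Over the 250 bases before each annotated start, 32 members had an entry in the RefSeq promoter table, and the start with the most CpG sites was taken for each gene. Their median was 11.5 CpG sites, against 6 over the 27025 genes of the table. At least 10 CpG sites were present in 21 of the 32 (65.6%), against 40.2% of all genes. Of the members whose stretches are printed, Peg3 and Zrsr1 were below that mark, with 8 CpG sites each. By parental group this was 10 of 19 paternally expressed and 11 of 13 maternally expressed members. The letters CG were counted once each, since the pattern reads the same on both strands. A count of CpG sites says nothing of their methylation in these mice, which was not measured.

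The libraries of replicates 1 to 4 held 9621762, 10306407, 10436291 and 10988373 counts on genes. Replicates 1 to 3 have the consecutive library numbers 1300 to 1302 and replicate 4 has 1476. How mice were assigned to pools is not in the labels. The p-values below therefore rest only on how much these libraries vary, which may be technical in part. Slc17a6 stood at 2237, 2011, 2014 and 2309 counts per 1000000 (CPM), and the 8 markers of glutamatergic nuclear neurons were all above 1 CPM in each library. Markers of other cells were also present. Replicate 1 stood apart in the summed midbrain markers, mostly through Tcf7l2, replicate 3 in granule cell markers and replicate 4 in leptomeningeal markers. Values without a library are given where they change a call. In bulk RNA, more cells of a type and more RNA per cell cannot be told apart. The level of 3 counts is 0.312, 0.291, 0.287 and 0.273 CPM in the 4 libraries, and this is the limit that a count of 0 allows, for counting error only. CPM serves to compare 1 gene between libraries. It is scaled to library totals only, without the scaling factors of the tests below (TMM, 1.10, 0.992, 0.981 and 0.932 in replicates 1 to 4). Small folds between libraries therefore depend on the scaling. Levels of different genes are compared per exon length, as counts divided by the gene's exon length and scaled to a sum of 1000000 (TPM).

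Most members were detected in every library. Of the 40 members, 33 (82.5%) reached 1 CPM in all 4 libraries, against 34.5% of all names. These were 21 of 24 paternally expressed and 12 of 16 maternally expressed genes. Of the 32532 names, 13828 had no count in any library. The share of the members need not hold for imprinted genes in general, since the 40 were chosen with earlier results known. Of 34 other imprinted genes looked up, 17 reached 1 CPM in every library.

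Few members were at or near 0. Mkrn3, a makorin RING finger gene, and Phlda2, a gene that limits placental growth, had no count in any library, which allows up to 0.0725 CPM over the group. The noncoding RNA H19 had 2 counts in replicate 3 and none elsewhere, and Snurf had 1, 3, 2 and 1 counts in replicates 1 to 4. The others that missed 1 CPM in at least 1 library were Cdkn1c, Mirg and Rtl1.

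The members together took 0.606, 0.706, 0.580 and 0.862% of all counts in replicates 1 to 4. Per exon length, the paternally expressed members had a median of 82.7 TPM and the maternally expressed members 23.5 TPM. The median of the 40 was 29.8 TPM, against 14.0 TPM over the 16043 names with a count and a known exon length. Among those names, 11 members ranked in the upper 10%, of which 10 were paternally expressed and 1, Blcap, maternally expressed. The 7 noncoding members had a median of 7.45 TPM and the 33 coding members 45.4 TPM. These medians describe the groups and were not tested. The imprint of 10 members (Grb10, Inpp5f, Igf2, Copg2, Igf2r, Blcap, H13, Commd1, Trappc9 and Ppp1r9a) is known to depend on isoform or tissue, and without them the medians were 56.3 TPM for the paternally expressed group and 5.79 TPM for the maternally expressed group.

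**Figure D1:**
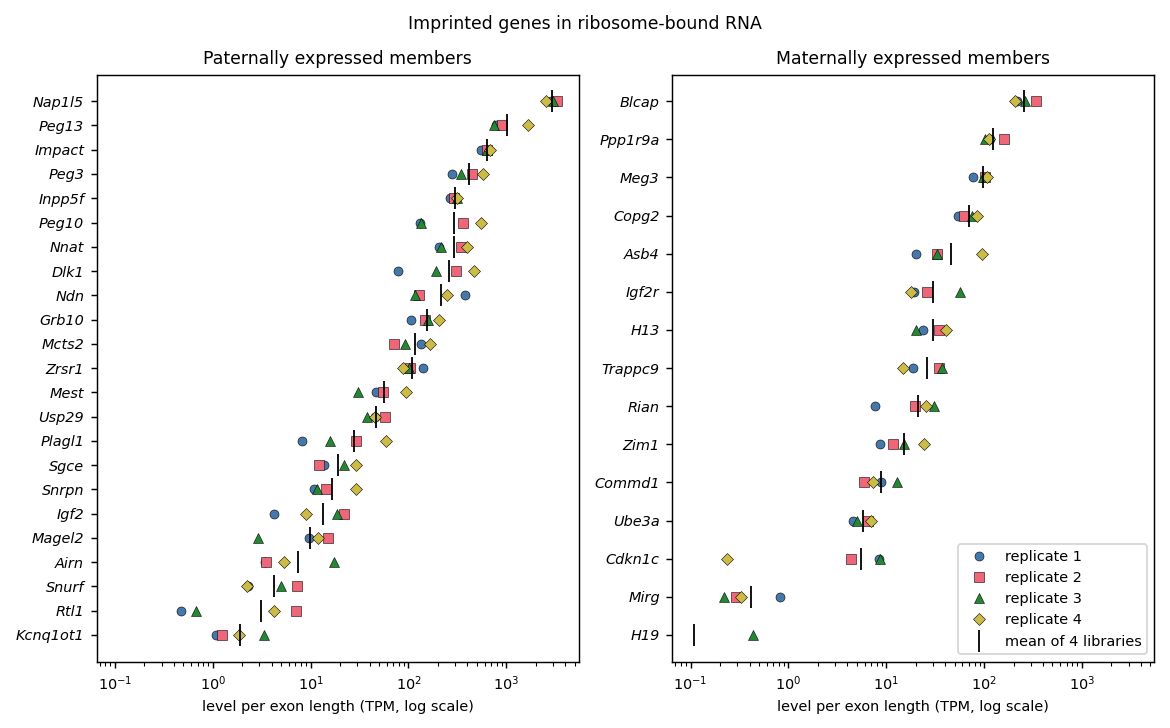
Level of each imprinted gene per exon length (TPM, log scale) in the 4 libraries, with paternally expressed members on the left and maternally expressed members on the right; each symbol is 1 library, the vertical tick is the mean, libraries at 0 are not drawn, and Mkrn3 and Phlda2 are left out. Nap1l5 sits highest at a mean of 2916 TPM, and 10 paternally expressed genes lie at or above the 156 TPM of Grb10, whereas Blcap is the highest of the maternal group at 257 TPM.

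Nap1l5, Peg13 and Impact were the 3 highest members, in that order, in all 4 libraries. By the mean, Peg3 and Inpp5f came next, and Peg3 lay above Inpp5f in each library, but neither place was the same throughout. Nap1l5, a gene of the nucleosome assembly protein family that is abundant in brain, stood at 1095, 1116, 982 and 889 CPM in replicates 1 to 4. Its mean per length was 2916 ± 305 TPM (SD, n = 4), above 99.9% of detected names. It is a single-exon gene inside an intron of Herc3, on the opposite strand (chromosome 6, 58905233 to 58907076, minus strand). Impact, an inhibitor of the Gcn2 kinase that is abundant in neurons, stood at 593, 602, 586 and 659 CPM and at 628 ± 54.3 TPM. Inpp5f, which encodes an inositol phosphatase and has a paternally expressed isoform in brain, stood at 469, 451, 464 and 495 CPM (298 ± 21.7 TPM). In CPM these 3 genes differed little between libraries, by at most 1.26-fold from the lowest to the highest. Inpp5f lay above Peg10, the next by the mean, in 2 of 4 libraries, and Ndn at 376 TPM lay above Peg3 at 276 TPM in replicate 1. From Inpp5f down, neighbours in the ranking swapped places in at least 1 library, so the order among Inpp5f, Peg10, Nnat, Dlk1, Blcap, Ndn, Grb10 and Ppp1r9a is not settled by these data.

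Peg13, a brain noncoding RNA, stood at 777, 787, 631 and 1489 CPM in replicates 1 to 4. Replicate 4 was the highest by far, and replicates 1 to 3 lay close together. Its mean was 1027 ± 434 TPM, which makes it the highest of the 7 noncoding members. Peg13 lies in an intron of Trappc9, on the same strand (chromosome 15, 72805600 to 72810324, minus strand). Trappc9, which encodes a subunit of a vesicle-tethering complex and is read mainly from the maternal copy in brain, stood at 31.5, 50.4, 51.9 and 22.0 CPM. The libraries that were low for Trappc9 were replicates 1 and 4. Within a library, Trappc9 lay below Peg13, with a log2 ratio of Trappc9 to Peg13 per length of -5.31 ± 1.09 and values from -6.82 to -4.35. Peg13 and unspliced RNA of Trappc9 over the same intron cannot be told apart in these counts.

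Neighbouring members were compared in this way within each library, on counts plus 0.5 per exon length. Of 22 pairs, 21 gave a ratio, and 18 of these had the same sign in all 4 libraries, or 17 when each library had to lie at least 0.01 from 0, which Meg3 over Dlk1 did not. With 4 libraries an exact two-sided sign-flip permutation test cannot pass 0.05 (its smallest p, adjusted by Benjamini-Hochberg over the 21, was 0.146), so the ratios are given as sizes with their spread. Leaving out the 3 ratios in which 1 gene had under 10 counts over the group, 15 of 18 kept 1 sign.

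The Peg3 domain on chromosome 7 holds Peg3, a zinc finger transcription factor gene, the ubiquitin protease gene Usp29, which starts at the same interval printed above but runs the other way, and the maternally expressed zinc finger gene Zim1. Peg3 stood at 772, 1107, 828 and 1457 CPM (chromosome 7, 6703892 to 6730431, minus strand), with a mean of 414 ± 132 TPM. Usp29 stood at 174, 193, 121 and 156 CPM and Zim1 at 14.8, 17.4, 22.0 and 37.2 CPM. Peg3 and Zim1 were both highest in replicate 4, and Usp29 was highest in replicate 2. Peg3 exceeded Usp29 by a log2 ratio of 3.11 ± 0.45 (libraries 2.59, 2.96, 3.21 and 3.67) and Zim1 by 4.83 ± 0.36. Of the exon bases of Usp29, 14.3% overlap another gene on the opposite strand.

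The Prader-Willi and Angelman region, further along chromosome 7, holds a run of paternally expressed genes and the maternally expressed Ube3a. Ndn, the gene of the neuronal growth-arrest protein necdin, stood at 291, 86.7, 76.8 and 173 CPM in replicates 1 to 4 (chromosome 7, 62346569 to 62350262, plus strand). Replicate 1 was the highest and replicate 4 came next, with replicates 2 and 3 lowest and close to each other. The mean per length of Ndn was 217 ± 121 TPM. Its neighbour Magel2, of the same MAGE protein family, ranged from 2.40 to 12.7 CPM, and Ndn exceeded it by a log2 ratio of 4.52 ± 1.04 per length. Against Mkrn3, which had no count, Ndn was at least 1470.5-fold higher per length, taking 3 counts over the group for Mkrn3.

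Ube3a, the ubiquitin ligase gene lost in Angelman syndrome, stood at 20.0, 24.6, 18.6 and 27.3 CPM, and its libraries spanned only 1.47-fold. Its annotated exons are long, and its mean per length was 5.79 ± 1.14 TPM. An antisense RNA, Snhg14, overlaps 8.74% of those exon bases. Snrpn, which encodes a spliceosomal protein of neurons, ranged from 4.50 to 11.8 CPM, with replicate 4 highest and the other 3 close together. Snrpn lay above Ube3a by a log2 ratio of 1.42 ± 0.42 per length, and below it, at -1.84, when CPM is compared without lengths. The values of Snrpn and Snurf are uncertain. Both are read from one transcript, all annotated Snurf exon bases are shared with Snrpn, and reads over shared exons may have been set aside as ambiguous, so their low counts are no measure of how much of this transcript was bound.

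On chromosome 6, Peg10 and Sgce start from one shared region and run in opposite directions, with Ppp1r9a and Asb4 further along. Peg10, which derives from a retrotransposon and is essential for the placenta, stood at 181, 443, 161 and 692 CPM in replicates 1 to 4 (chromosome 6, 4747306 to 4760517, plus strand). Replicates 2 and 4 were high and replicates 1 and 3 low. Its mean was 294 ± 202 TPM. Sgce, which encodes epsilon-sarcoglycan and is mutated in myoclonus-dystonia, stood at 30.6, 23.8, 41.2 and 57.7 CPM, and the log2 ratio of Sgce to Peg10 per length was -3.75 ± 1.01.

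The maternally expressed genes of that domain differed from each other. Ppp1r9a, the gene of the actin-binding synaptic protein neurabin, stood at 352, 430.0, 265 and 308 CPM and 123 ± 25.9 TPM, and the log2 ratio of Sgce to Ppp1r9a per length was -2.75 ± 0.80. Asb4, which encodes an ankyrin-repeat and SOCS-box protein, stood at 16.7, 23.9, 23.0 and 70.7 CPM. Replicate 4 of Asb4 was far above the other 3, which spanned a narrow range. Peg10 exceeded Asb4 by 2.67 ± 0.58 per length.

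The Dlk1-Meg3 domain on chromosome 12 pairs paternally expressed coding genes with noncoding RNAs read from the maternal copy. Dlk1, a transmembrane protein with EGF repeats related to Notch ligands, stood at 92.2, 320.3, 193 and 496 CPM (chromosome 12, 109452823 to 109463336, plus strand). Replicate 4 was the highest, replicate 2 next and replicate 1 the lowest. Its mean per length was 260.3 ± 165 TPM. Meg3, the long noncoding RNA of the domain, stood at 295, 342, 316 and 364 CPM (96.3 ± 12.9 TPM), with the 4 libraries within 1.24-fold of each other. The maternally read partner was steady where the paternally read one spanned 5.38-fold. Their log2 ratio, Meg3 over Dlk1, was -0.000711, -1.58, -0.96 and -2.12 in replicates 1 to 4. In replicate 1 they were level, and in the others Dlk1 was higher; in CPM, without lengths, the mean ratio turned to 0.51.

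Rian, a host of small nucleolar RNAs downstream of Meg3, stood at 29.1, 66.5, 99.7 and 87.3 CPM, lowest in replicate 1, and Meg3 exceeded it by 2.37 ± 0.71 on the log2 scale. Mirg, the microRNA host further along, had from 3 to 12 counts per library, and Rian exceeded it by 5.53 ± 1.63. Rtl1, a retrotransposon-derived gene opposite a microRNA cluster, stood at 0.624, 8.34, 0.767 and 5.01 CPM. Its libraries split like those of Peg10, with replicates 2 and 4 high and replicates 1 and 3 low. Meg3 exceeded Rtl1 by 5.71 ± 1.72 per length. The noncoding members Peg13, Meg3, Rian, Kcnq1ot1 and Airn reached 1 CPM in every library although the RNA was captured through ribosomes; with no input RNA among the samples, their level relative to the tissue was not measured.

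Genes of the growth factor and cell cycle domains were mostly low. Igf2, the insulin-like growth factor gene, stood at 5.09, 23.1, 18.9 and 9.74 CPM, higher in replicates 2 and 3 than in replicates 1 and 4. H19, its maternally expressed neighbour, had 2 counts in all, so the sign of their ratio was the same in the 4 libraries but its size rests on the 0.5 added to each count. Igf2r, whose product clears Igf2 and sorts lysosomal enzymes, stood at 37.3, 44.3, 94.0 and 31.6 CPM. Airn, the antisense RNA that silences Igf2r on the paternal copy outside neurons, ranged from 2.33 to 11.2 CPM. Both Igf2r and Airn were highest in replicate 3, and Igf2r exceeded Airn by 2.18 ± 0.57 per length.

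Kcnq1ot1, a very long antisense RNA inside Kcnq1, stood at 21.2, 21.1, 55.4 and 32.8 CPM, also highest in replicate 3, and at only 1.88 ± 1.03 TPM. Cdkn1c, the gene of the cell cycle inhibitor p57, had 35, 17, 33 and 1 counts in replicates 1 to 4. Its ratio to Kcnq1ot1 had no single sign (-2.40 to 2.99), and Cdkn1c and Phlda2 gave no ratio since both were under 3 counts in replicate 4. Grb10, an adaptor that damps insulin and growth factor signalling and is read from the paternal copy in neurons, was the high member here, at 204, 249.9, 258 and 355 CPM and 156 ± 41.2 TPM. Plagl1, a zinc finger transcription factor gene, stood at 13.3, 41.5, 22.0 and 87.5 CPM, with replicate 4 highest, replicate 2 next and replicate 1 lowest, the same order as Dlk1. Of the 33 members, Plagl1 had the widest range, 6.57-fold.

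Mest, which encodes a hydrolase-like protein of the endoplasmic reticulum, stood at 38.5, 39.6, 21.3 and 69.9 CPM, highest in replicate 4 and lowest in replicate 3. Copg2, a coat protein gene that overlaps its end on the other strand, stood at 58.2, 58.3, 69.4 and 82.5 CPM. The log2 ratio of Mest to Copg2 was -0.40 ± 0.64 and had no single sign. As 23.1% of Mest exon bases and 17.8% of Copg2 exon bases overlap the other gene, and the strand setting of the counting is not known, both counts are uncertain.

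A last group consists of genes that sit in an intron of a host gene and are read from the paternal copy while the host, or an isoform of it, is read from the maternal one. Nnat, a small membrane protein gene of the neuronal endoplasmic reticulum, stood at 79.3, 115, 69.7 and 138 CPM, and its host Blcap at 137, 191, 143 and 119 CPM. Per length they were close, at 290.4 ± 95.5 TPM and 257 ± 61.2 TPM, and their log2 ratio was 0.15 ± 0.55, with values of -0.06, 0.01, -0.31 and 0.95 in replicates 1 to 4, and only replicate 4 lay far from 0. Mcts2, a retrogene related to a translation re-initiation factor, stood at 25.9, 11.8, 14.9 and 28.7 CPM, and its host H13, the signal peptide peptidase gene, at 43.9, 56.9, 31.8 and 68.0 CPM. The log2 ratio of H13 to Mcts2 was -1.95 ± 0.65 per length, and 1.34 in CPM without lengths. Mcts2 lies on the same strand as H13, so unspliced H13 RNA over its intron would not be separated from it.

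Zrsr1, a retrogene for a splicing factor related to U2AF, stood at 133, 86.1, 81.7 and 75.1 CPM, highest in replicate 1. Its host Commd1, a gene of copper metabolism, ranged from 6.50 to 13.7 CPM, and the log2 ratio of Commd1 to Zrsr1 was -3.67 ± 0.51 per length. Zrsr1 and Commd1 share 9.17 and 6.94% of their exon bases on opposite strands. In both retrogene pairs, and in Trappc9 with Peg13, the paternally expressed inner gene had the higher level per length in 4 of 4 libraries.

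**Figure D2:**
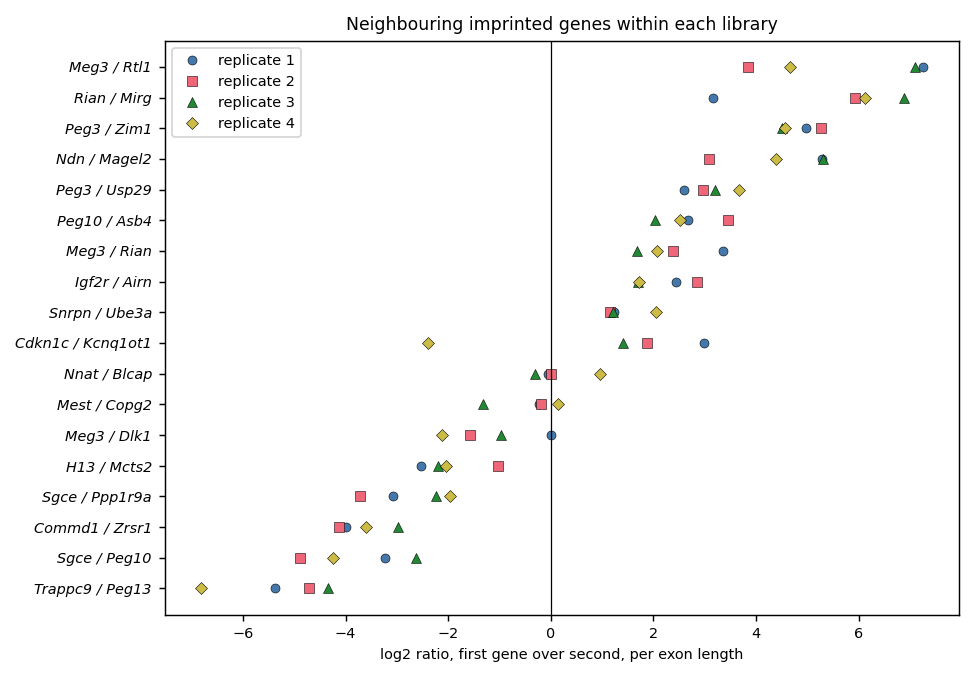
Log2 ratio of neighbouring imprinted genes per exon length, first gene over second, with 1 symbol per library; the vertical line marks equal levels, and the 3 ratios in which 1 gene had under 10 counts over the group are not drawn. The ratios run from -5.31 for Trappc9 over Peg13 to 5.71 for Meg3 over Rtl1 on average, and those of Cdkn1c, Nnat and Mest cross the line, while that of Meg3 over Dlk1 reaches it in replicate 1.

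The spread between libraries was then compared across genes. Over the 33 members at 1 CPM or more in every library, the highest library exceeded the lowest by a median of 2.36-fold, from 1.10-fold for Inpp5f to 6.57-fold for Plagl1. For 6 members this was under 1.5-fold and for 10 it was over 3-fold. The biological coefficient of variation, edgeR's estimate of the spread beyond counting error, had a median of 37.3% over the members and 38.7% over the 11227 genes tested. Among genes with a mean of at least 10 CPM the order turned, with 36.6% over 29 members and 35.2% over 8836 genes. Nap1l5 (26.1%), Inpp5f (26.3%), Impact (26.4%) and Meg3 (26.9%) were among the steadiest 3% of all genes tested. Airn (60.2%), Magel2 (55.9%) and Snrpn (54.4%) were the widest, and all 3 are low genes. The spread of low genes is larger in general, so members were also set beside genes within 1.5-fold of their own mean level. Of 696 genes near Dlk1, 99.0% had a smaller spread than Dlk1 (45.5%), and of 478 near Peg10, 99.6% had a smaller spread than Peg10 (45.7%). For Plagl1 (51.1%) the share was 99.0% of 2433 genes, whereas for Nap1l5 it was 1% of 100. It was 5.63% for Inpp5f, 10.4% for Impact and 25.1% for Meg3, so Meg3 was not unusually steady for its level.

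**Figure D3:**
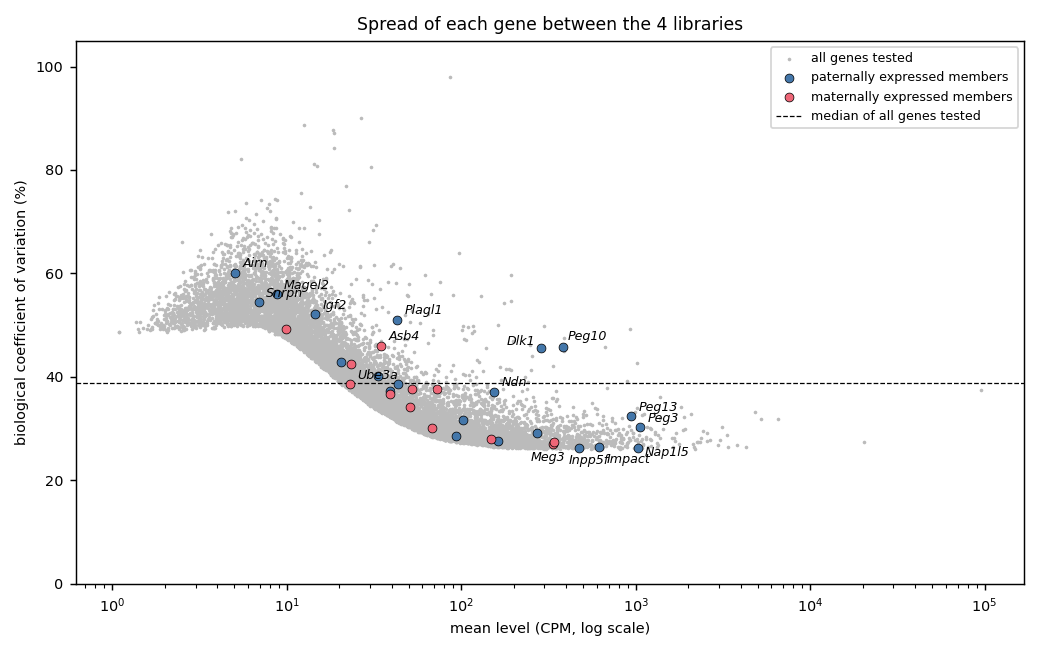
Biological coefficient of variation of each gene between the 4 libraries (%) against its mean level (CPM, log scale); grey points are the 11227 genes tested, coloured points the imprinted genes, and the dashed line the median of all genes at 38.7%. Nap1l5, Inpp5f, Impact and Meg3 lie at the lower edge of the cloud near 26%, Dlk1 and Peg10 lie above 99.0 and 99.6% of genes within 1.5-fold of their level, and 1 gene, Tcf7l2 at 188%, is above the axis.

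Since the samples form 1 group, the contrast available was that of each library against the other 3, which asks whether members differ in a library more than these libraries vary. The lone library is assumed to vary like the rest, and the fit leaves 2 residual degrees of freedom. With edgeR's quasi-likelihood test and Benjamini-Hochberg adjustment over 11227 genes, 0 of the 33 members tested passed 0.05 in any of the 4 contrasts. Over all genes tested, 1 gene passed for replicate 1 (0.00891%), 0 for replicates 2 and 3 (0%) and 6 for replicate 4 (0.0534%). DESeq2 called 0 members for replicates 1, 2 and 3, beside 0.186, 0.0267 and 0.675% of all genes it tested. For replicate 4 it called 2 of 35 members (5.71%), Asb4 and Peg13, both higher, beside 3% of all genes. Without a filter on low counts edgeR called 1 of 38 members for replicate 1 (Dlk1, lower), beside 0.171% of all genes, and 5 of 38 for replicate 4 (Asb4, Dlk1, Peg10, Peg13 and Plagl1, all higher), beside 2.22%. At an unadjusted p under 0.05, 6, 0, 6 and 9 members were counted for replicates 1 to 4, beside 3.78, 0.392, 6.94 and 15.1% of all genes tested.

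Replicate 4 was the highest library for 19 of the 33 members, and the share over all genes was not counted. The estimate for replicate 4 was positive for 24 of 33 members, beside 47.1% of all genes tested, with a median log2 fold change of 0.50 against -0.05 over all genes. The largest were Plagl1 at 1.88 (SE 0.54) and Asb4 at 1.86 (SE 0.44), with adjusted p = 0.188 and 0.165 in edgeR's quasi-likelihood test. Peg10 followed at 1.52 (SE 0.52) and Dlk1 at 1.40 (SE 0.57) (edgeR adjusted p = 0.248 and 0.305). Peg13 differed by 1.16 (SE 0.25), with the lowest adjusted p of the members, 0.134 (edgeR). Mest (1.22), Zim1 (1.16), Peg3 (0.81) and Grb10 (0.70) completed the 9 members with an unadjusted p under 0.05. Peg13, Peg3, Peg10, Dlk1, Plagl1, Mest and Grb10 are paternally expressed, and Asb4 and Zim1 maternally expressed. The calls turned on which libraries stood on the other side. Without replicate 2, the other library with high Dlk1, Peg10 and Plagl1, these genes passed for replicate 4 at 1.92, 2.17 and 2.43 (edgeR adjusted p = 0.0182, 0.00266 and 0.0231), that is 3 of 33 members beside 0.307% of all genes. Peg13 passed without replicate 1 (1.14, edgeR adjusted p = 0.0485) and Asb4 without replicate 3 (1.93, edgeR adjusted p = 0.0329). Each was 1 of 33 members, beside 0.552 and 1.49% of all genes in the same fits. Such a fit rests on 1 library against 2.

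In replicate 1 the estimate was positive for 4 of 33 members, beside 45.3% of all genes, with a median of -0.52 against -0.07. Plagl1 was at -2.12 (SE 0.79), Dlk1 at -2.06 (SE 0.56), Igf2 at -1.93 (SE 0.88), Rian at -1.73 (SE 0.51) and Peg10 at -1.45 (SE 0.66), and Ndn, on the other side, at 1.17 (SE 0.47). Their adjusted p was 0.990 in each case (edgeR). Without replicate 4, Dlk1 (-1.63, edgeR adjusted p = 0.0266) and Ndn (1.67, adjusted p = 0.00544) passed for replicate 1, 2 of 34 members beside 0.472% of all genes. In replicate 3 the estimate was positive for 10 of 33 members, beside 46.5% of all genes. It was low for Magel2 (-2.13), Peg10 (-1.46) and Ndn (-1.19) and high for Airn (1.99), Igf2r (1.36) and Kcnq1ot1 (1.16). Replicate 2 had 14 of 33 positive estimates, beside 43.6% of all genes, and 0 of them reached an unadjusted p under 0.05. The contrasts share libraries, so they are not separate evidence.

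**Figure D4:**
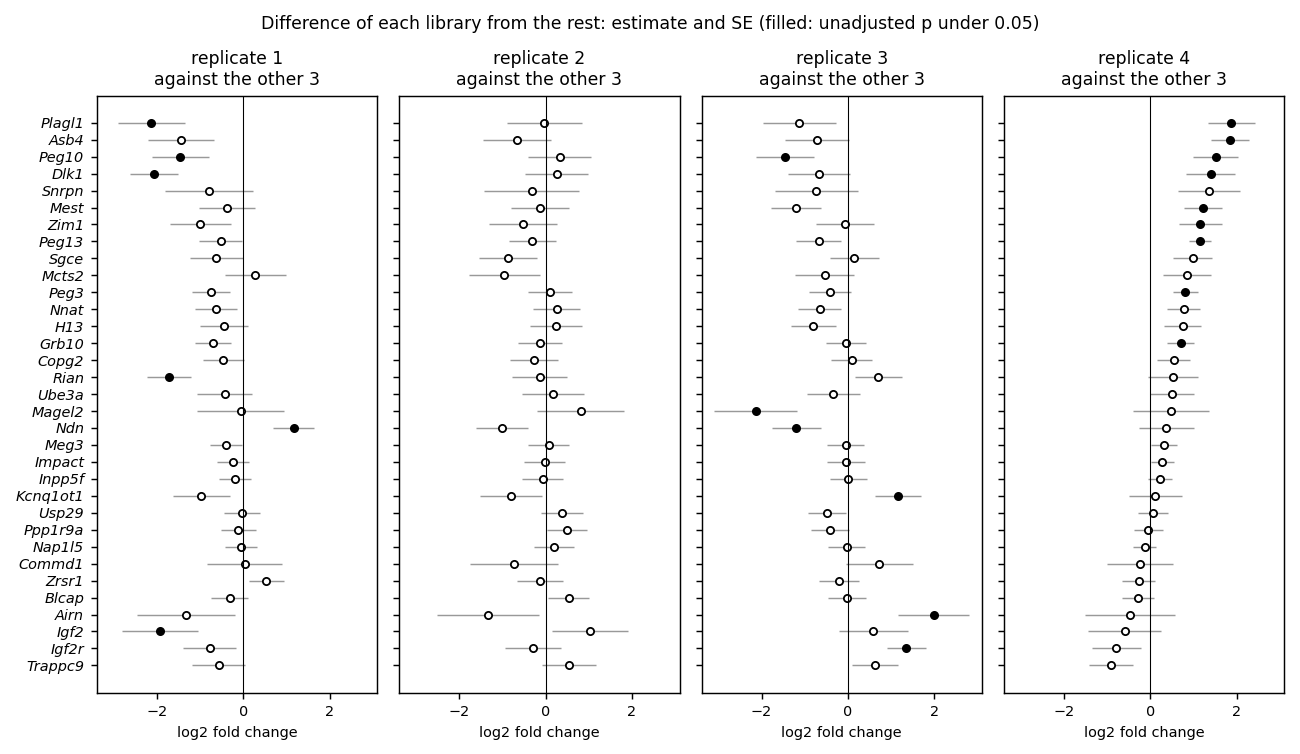
Log2 fold change of each library against the other 3 for the 33 imprinted genes tested, ordered by the estimate for replicate 4; points are estimates, bars are ± 1 SE, and filled points have an unadjusted p under 0.05. In replicate 4 there are 24 positive estimates and 9 filled points, all positive, whereas replicate 2 has none filled.

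Marker lists of other cells also differed between the libraries. The 7 markers of monoamine and acetylcholine neurons, of which 3 were at 1 CPM or more in every library, summed to 14.9, 109.9, 20.6 and 116 CPM in replicates 1 to 4. Replicates 2 and 4 were thus high, as they were for Peg10, Dlk1, Plagl1 and Rtl1. How many of all genes were also high in these libraries was not counted. Of the defining markers, Th stood at 2.39, 22.2, 6.52 and 31.6 CPM and Dbh, of noradrenergic cells, at 1.04, 7.28, 0 and 19.1 CPM. Tph2, of serotonergic cells, was at or near 0. Th and Dbh were thus highest in replicate 4, as was Slc18a2 (20.2 CPM in replicate 2 and 30.5 CPM in replicate 4). Slc6a2 was not, at 14.0 CPM in replicate 2 and 13.1 CPM in replicate 4. Slc5a7 and Chat, of acetylcholine neurons, were highest in replicate 2. Slc5a7 stood at 2.18, 35.8, 3.83 and 17.7 CPM, and Chat reached 10.3 CPM in replicate 2. The similar sums of replicates 2 and 4 therefore came from different mixes of these markers. The 5 midbrain markers summed to 2517, 28.6, 61.0 and 10.5 CPM. Tcf7l2 alone stood at 2486 CPM in replicate 1, the library in which Ndn and Zrsr1 were highest. Ndn was next highest in replicate 4, at 173 CPM, where the midbrain sum was lowest. The rest of the midbrain list was mixed. Pou4f1 (19.3, 0.485, 0.479 and 0.182 CPM) was also highest in replicate 1. Lef1 (6.13, 0.582, 12.9 and 1.27 CPM) and Otx2 (4.88, 4.75, 5.65 and 0.455 CPM) were highest in replicate 3. Gata3 was at 0 in 3 libraries and under 1 CPM in replicate 1.

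The 6 Purkinje cell markers summed to 1352, 1634, 3279 and 1158 CPM and the 5 granule cell markers to 435, 534, 1049.6 and 441 CPM. Inhibitory neuron markers, with 4 genes, summed to 114, 173, 369 and 72.3 CPM and the 6 markers of astrocytes and Bergmann glia to 129, 156, 283 and 107 CPM. Replicate 3 was the highest in all 4 of these lists, and it was also the highest for Igf2r, Airn and Kcnq1ot1. Choroid plexus and ependyma markers, with 4 genes, summed to 52.6, 210.2, 14.6 and 4.64 CPM, led by Ttr. Igf2 was highest in replicate 2 as they were, but lowest in replicate 1, where these markers were next highest. Leptomeningeal markers, 5 genes of which none was at 1 CPM in every library, summed to 1.87, 2.43, 1.44 and 8.19 CPM. The 6 oligodendrocyte markers summed to 471, 729, 1150.2 and 996 CPM, lowest in replicate 1 and highest in replicate 3. The 4 markers of oligodendrocyte precursors summed to 13.1, 11.4, 30.9 and 25.9 CPM and the 5 of endothelium and pericytes to 46.0, 11.9, 43.7 and 29.6 CPM. The 8 glutamatergic nuclear markers, by comparison, summed to 2985, 2556, 2498 and 3056 CPM, within a narrow range. Most of each sum was Slc17a6, at 2237, 2011, 2014 and 2309 CPM, and the other markers varied more. Lhx9 stood at 148, 44.9, 46.2 and 127 CPM and Lhx2 at 63.0, 42.6, 22.3 and 18.7 CPM in replicates 1 to 4. Tbr1 ranged from 1.25 to 13.7 CPM and Irx3 from 2.81 to 12.3 CPM. Meis1 ranged from 32.3 to 62.1 CPM, Meis2 from 226 to 446 CPM and Spp1 from 56.7 to 141 CPM. The part of any of these cell types, glutamatergic neurons included, in the levels of the imprinted genes was not tested. Microglial markers stayed between 3.64 and 9.46 CPM in sum, with C1qa at 0 in all 4 libraries.

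**Figure D5:**
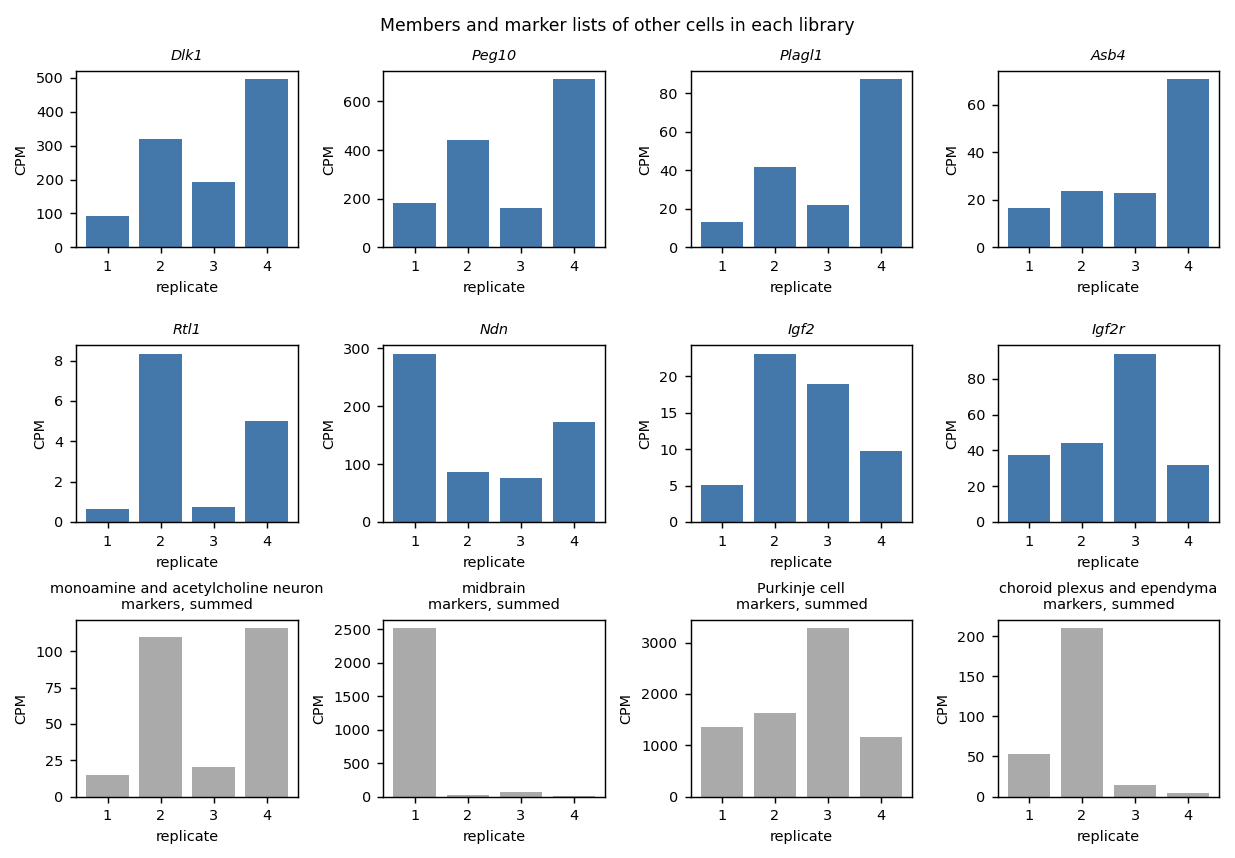
Level of 8 imprinted genes (blue bars, CPM) and the summed level of 4 marker lists of other cells (grey bars, CPM) in replicates 1 to 4, each panel with its own axis from 0. Dlk1, Peg10, Plagl1 and Rtl1 are high in replicates 2 and 4, where the monoamine and acetylcholine markers sum to 109.9 and 116 CPM. Ndn is highest in replicate 1, where the midbrain markers sum to 2517 CPM, nearly all of it Tcf7l2. It is next highest in replicate 4, at 173 CPM, where the midbrain markers are lowest, at 10.5 CPM.

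Genes that set or maintain imprints were read beside the members. Of 24 such genes, 16 reached 1 CPM in every library, and Ctcfl and Dppa3, genes of germ cells and early embryos, had no count. The lowest with a count was Dnmt3l, with 1 count in replicate 2. Among the highest per length were the corepressor gene Trim28 at 116 TPM, Arid4a at 108 TPM and the insulator protein gene Ctcf at 84.0 TPM. In CPM, Trim28 stood at 89.1, 88.6, 43.5 and 146 in replicates 1 to 4, highest in replicate 4 and lowest in replicate 3. Of the 16 tested in edgeR's quasi-likelihood test, 0 passed in any library contrast.

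A further 36 imprinted genes outside the 40 were looked up, and 34 were found. Of these, 17 reached 1 CPM in every library and 6 had no count. Gnas, the stimulatory G protein gene whose imprint is limited to some tissues and promoters, was the highest at 1579 TPM. The tetraspanin gene Cd81 stood at 555 TPM, Adam23 at 115 TPM and Nap1l4 at 104 TPM, and the lowest with a count was Tspan32, with 1 count in replicate 4. Again 0 of 17 tested passed in any library contrast (edgeR). Their median over the 34 was 4.61 TPM, below the 29.8 TPM of the 40 members; the 40 were chosen with results of these data known, so this difference was not tested.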

How the data were processed

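The authors deposited raw counts by gene symbol, with a file for each anti-EGFP pulldown. Per the submitters' processing notes, the tools were STAR 2.0.0e and HTSeq and the build was mm10. Not given in the sources used here were the annotation, the strand setting and the library kit. Summary lines of the counting program stayed out of all totals (no feature 14.1 to 21.1%, ambiguous 2.04 to 2.94% and not unique 14.2 to 20.6% of reads). Rn45s, which took 4.92 to 14.2% of counts, was kept.

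Exon lengths and coordinates come from GENCODE release M21 on the same build, matched by symbol for 71.2% of names, 94.2% of names with 10 counts in every library and 40 of 40 members. Ranks in TPM cover only names with a length. Contrasts of 1 library with the other 3 used edgeR 4.0.16 (R 4.3.3; TMM scaling, filterByExpr, robust glmQLFit and glmQLFTest), tested on simulated data and adjusted over all genes. DESeq2 1.42.0, RLE size factors, no filter, Rn45s left out and each library left out were alternatives. No library was a copy of another, since each pair differed beyond sampling noise in a chi-square test.

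Members with a mean of 10 CPM or more are given in each library, others by range, or by name when at 0 or in a ratio. Of the other imprinted genes and the imprinting machinery the 4 highest per length, the lowest and any called gene are named, except that 1 gene is not reported here, and of each marker list the summed CPM is given. Outside that rule, Slc17a6, Meis1, Meis2, Spp1, Lhx9, Lhx2, Irx3 and Tbr1 are named as single markers of the glutamatergic list. Single markers named from other lists are Th, Dbh, Slc6a2, Slc18a2, Tph2, Slc5a7, Chat, Ttr, Tcf7l2, Pou4f1, Lef1, Otx2, Gata3, Pcp2 and Aldh1l1. C1qa, Ctcfl and Dppa3 are named for a count of 0. Snhg14 and Herc3 are named as overlapping genes, and the values of Magel2, Snrpn, Airn, Commd1, Cdkn1c and Rtl1 are given as partners in ratios. The members and lists were chosen with earlier results of these data known.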

Additional observations from a re-analysis of the deposited data

Results flagged for a closer look

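A library counted as far from the rest when its gap to the nearest of the others, divided by the range, exceeded Dixon's 95% critical value for 4 samples. Chance alone marks about 1 in 20 groups of independent, normally distributed values, which these need not be. Here 8 of 74 values tested were marked: 4 of 38 member levels, 1 of 21 ratios and 3 of 15 summed lists. An excess over chance was not tested. Snrpn stood at 11.8 CPM in replicate 4, against 4.50 to 5.72 CPM in the other 3, and its log2 ratio to Ube3a was 2.05 there, against 1.16 to 1.24. Asb4 stood at 70.7 CPM in replicate 4, against 16.7 to 23.9 CPM. Airn stood at 11.2 CPM in replicate 3, against 2.33 to 3.64 CPM. H19 stood at 0.192 CPM in replicate 3, which is 2 counts, and at 0 elsewhere.

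Among the summed lists, granule cell markers stood at 1049.6 CPM in replicate 3, against 435 to 534 CPM. Midbrain markers stood at 2517 CPM in replicate 1, against 10.5 to 61.0 CPM, and 2486 CPM of this was Tcf7l2. Leptomeningeal markers stood at 8.19 CPM in replicate 4, against 1.44 to 2.43 CPM. Airn and the granule cell list share their high library, as do Snrpn, Asb4 and the leptomeningeal list, and a link between them was not tested.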

How the results depend on the processing

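The count of members called in a single library rested on the filter and on which libraries were compared. For replicate 1 it was 1 without a filter on low counts (Dlk1, lower) and 0 to 2 when another library was left out (Ndn higher and Dlk1 lower without replicate 4). For replicate 4 it was 2 with DESeq2 (Asb4 and Peg13), 5 without a filter (Asb4, Dlk1, Peg10, Peg13 and Plagl1) and 1 to 3 when another library was left out: Peg13 without replicate 1, Dlk1, Peg10 and Plagl1 without replicate 2, and Asb4 without replicate 3. All of these were higher in replicate 4. Calls over the whole table moved as well: for replicate 4 from 6 genes (0.0534%) to 415 (3%) with DESeq2 and 416 (2.22%) without a filter, beside 5.71 and 13.2% of the members tested. For replicate 1 they went from 1 to 25 and 32, for replicate 3 from 0 to 91 and 86, and for replicate 2 from 0 to 5 and 0. The cause was not tested. RLE size factors and leaving out Rn45s left each member count at 0.

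The 21 single member estimates with an unadjusted p under 0.05 kept their sign in all 147 alternative values. Members at 1 CPM in every library numbered 33 to 34 when a library was left out. Ratios of 1 sign numbered 17 to 19 under other lengths and pseudocounts and 18 to 21 with a library left out. Of 168 alternative ratio values, 7 had another sign than the mean reported. Among ratios of 1 sign these were 3, all in CPM without lengths: Snrpn over Ube3a at -1.84, Meg3 over Dlk1 at 0.51 and H13 over Mcts2 at 1.34. The other 4 were in ratios that had no single sign: Cdkn1c over Kcnq1ot1 at -4.55 in CPM, and Nnat over Blcap at -0.59 in CPM, -0.04 with the longest transcript and -0.12 without replicate 4. The paternal median was 68.2 in CPM, 56.3 TPM without members of isoform- or tissue-dependent imprint and 109 TPM for coding members. The maternal median was 29.2 TPM with the longest transcript as length, 36.3 in CPM and 5.79 TPM without those members. It stayed below the paternal median under each of these settings. The median spread of the members was 33.8 to 39.1% with a library left out, and 36.6% against 35.2% of all genes at a mean of 10 CPM or more. No paired analysis was possible because the samples form 1 group. At these depths a gene under 0.3 CPM in a library cannot be told from 0.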
